A study of Homo sapiens with 8 samples.

Results

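TAZ peaks around the genes of the EGFR family were followed over 4 ChIP-seq peak lists. The family was taken as 10 members of the 20033 protein-coding genes of GENCODE version 44, namely the receptors EGFR, ERBB2 and ERBB3 and the ligands AREG, EREG, EPGN, BTC, HBEGF, TGFA and EGF. A peak was counted when its summit, the position of highest signal, lay no more than 100 kb from a transcription start site (TSS) annotated for a member. This gave 128 of the 55334 peaks in the 4 lists, and 92 of 39503 regions once peaks that overlapped across lists by at least 1 bp were merged.

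The lists come from MCF10A, a non-transformed human mammary epithelial cell line, in which doxycycline (Dox) switches on TAZ-4SA, an activated form of the co-activator TAZ. All cells carried this construct, and they were kept without Dox or with 0.05 µg/ml of it over 24, 48 or 72 h. Their medium contained EGF, itself a ligand of the family. Each condition had 1 TAZ library and 1 IgG library and gave 1 peak list, without replicates, so every difference between times below is a difference between single libraries and was given no test. The antibody was to TAZ, so TAZ-4SA and the TAZ that the cells make themselves cannot be told apart.

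The EGFR family consists of cell surface receptor tyrosine kinases that pair up when a ligand binds and then pass the signal to the RAS, PI3K and STAT pathways. The ligands are made as membrane-bound precursors and are released by proteases such as ADAM17, so that a cell can stimulate itself and its neighbours. In the mammary gland the receptor EGFR and its ligand amphiregulin are known for their role in duct growth. TAZ has no DNA-binding domain and reaches DNA through partners, mainly the TEAD factors, often close to AP-1 factors.

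The sequences around 5 summits are shown first, because 4 of them are the distal regions found in at least 3 lists and the fifth is the only member promoter called without Dox. Each window reaches 100 bp to either side of the summit at 72 h. Capitals mark a TEAD motif (ACATTCC or GCATTCC) or an AP-1 motif (TGACTCA or TGAGTCA), searched on both strands, so GGAATGT and GGAATGC are TEAD motifs read on the minus strand.
EGFR 51.4 kb upstream, chr7:54967476-54967676, hg38, plus strand: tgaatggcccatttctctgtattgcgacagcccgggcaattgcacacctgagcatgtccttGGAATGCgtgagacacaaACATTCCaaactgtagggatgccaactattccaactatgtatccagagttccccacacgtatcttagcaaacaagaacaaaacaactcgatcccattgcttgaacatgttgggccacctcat
AREG 12.1 kb upstream, chr4:74432984-74433184, hg38, plus strand: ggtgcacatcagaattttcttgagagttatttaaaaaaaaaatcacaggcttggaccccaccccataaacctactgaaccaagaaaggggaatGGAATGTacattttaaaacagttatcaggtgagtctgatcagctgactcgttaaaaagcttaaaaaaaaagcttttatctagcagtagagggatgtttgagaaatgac
EREG intron 1, chr4:74374667-74374867, hg38, plus strand: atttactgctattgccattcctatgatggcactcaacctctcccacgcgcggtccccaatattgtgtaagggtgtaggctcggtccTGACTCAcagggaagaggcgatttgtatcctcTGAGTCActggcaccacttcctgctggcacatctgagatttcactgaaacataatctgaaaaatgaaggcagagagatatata
TGFA intron 1, chr2:70524379-70524579, hg38, plus strand: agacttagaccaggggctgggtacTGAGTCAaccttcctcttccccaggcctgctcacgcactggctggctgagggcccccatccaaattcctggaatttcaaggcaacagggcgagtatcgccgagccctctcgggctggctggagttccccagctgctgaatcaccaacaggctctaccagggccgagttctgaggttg
ERBB2 upstream promoter, chr17:39688008-39688208, hg38, plus strand: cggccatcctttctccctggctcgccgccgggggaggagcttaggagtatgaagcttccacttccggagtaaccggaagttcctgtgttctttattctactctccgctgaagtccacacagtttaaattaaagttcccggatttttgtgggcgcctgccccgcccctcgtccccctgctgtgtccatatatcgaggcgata

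The EGFR window held 2 TEAD motifs whose centres lay 18 bp apart and no AP-1 motif. The AREG window held 1 TEAD motif, centred 4 bp from the summit. The EREG window held 2 AP-1 motifs, the TGFA window 1 AP-1 motif, and the ERBB2 promoter window neither. Of all peaks at 72 h, 27.7% held the TEAD motif and 16.0% the AP-1 motif in a window of this length. A match describes the letters and does not show that a factor was bound.

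TAZ peaks near the members became more numerous with each time point. There were 4 without Dox, then 6 (24 h), 28 (48 h) and 90 (72 h). The lists as a whole held 2431, 2469, 11767 and 38667 peaks in the same order, and the members' share was 0.165%, 0.243%, 0.238% and 0.233% of all peaks. The windows around the members cover 2.2 Mb. They held 1.82, 2.73, 12.7 and 40.9 peaks per Mb at the 4 times, against 1.19, 1.01, 4.94 and 17.4 peaks per Mb in the windows of all protein-coding genes, which cover 1900 Mb. The member windows as a set thus held more peaks per Mb than gene windows as a whole in each list, but not every member did. ERBB3, HBEGF, TGFA, BTC and EGF had 0 peaks without Dox, and HBEGF, EPGN, BTC and EGF had 0 at 24 h. TGFA (3.47), EGF (3.43) and BTC (0) lay below 4.94 peaks per Mb at 48 h. EGF (13.7) and BTC (8.91) lay below 17.4 at 72 h. The remaining members were above gene windows as a whole in each list. The values without Dox and at 24 h rest on 4 and 6 peaks.

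**Figure D1:**
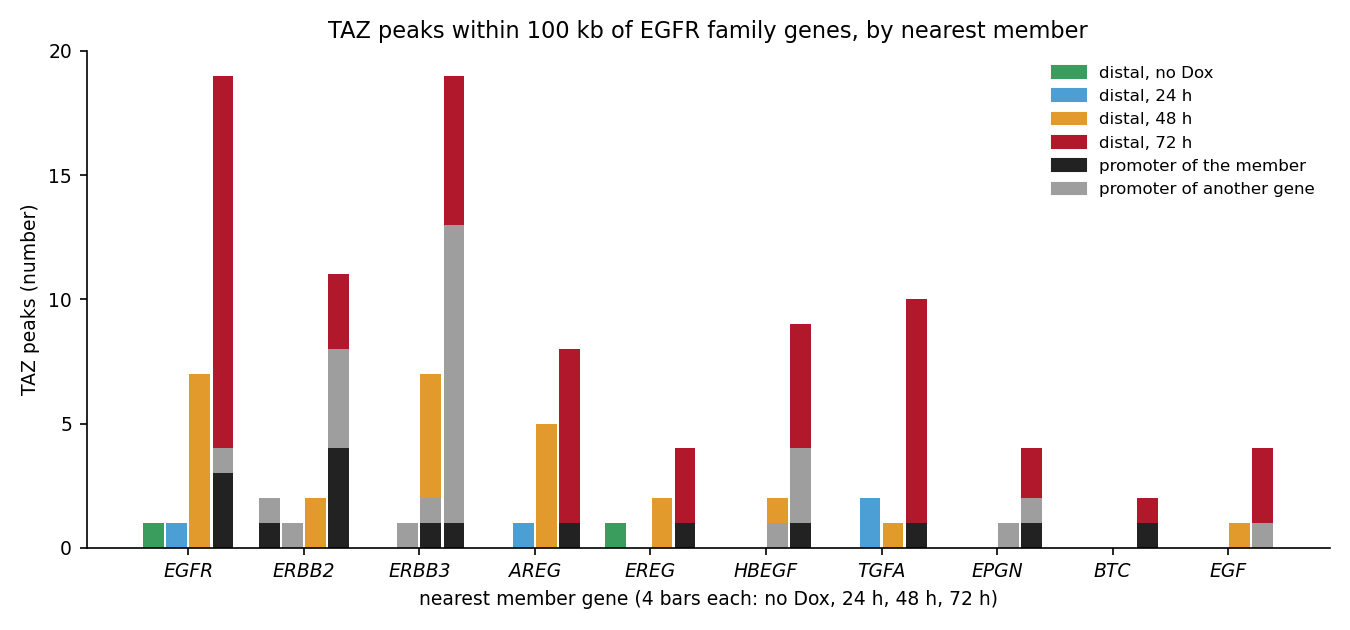
Number of TAZ peaks within 100 kb of a TSS for each member gene, with every peak given to its nearest member; the 4 bars of a gene stand for the 4 lists in order of time, and shades separate promoters of the member, promoters of other genes and distal peaks. EGFR and ERBB3 both reach 19 peaks at 72 h, but 12 of the ERBB3 peaks lie at promoters of other genes.

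At 24 h and 48 h most peaks near the members were distal, that is, farther than 3 kb from any TSS. Distal peaks numbered 2 of 4 without Dox, then 4 of 6 (24 h), 24 of 28 (48 h) and 54 of 90 (72 h). Peaks at a member's own promoter (within 3 kb of its TSS) numbered 1, 0, 1 and 14. The remaining 1, 2, 3 and 22 peaks lay at promoters of neighbouring genes. Together, promoter peaks made up 50%, 33.3%, 14.3% (4.03 to 32.7%) and 40% (29.8 to 50.9%) of the members' peaks, with exact binomial 95% intervals for the larger lists, against 71.4%, 28.9%, 26.0% and 43.7% of all peaks. Such intervals, here and below, cover counting error alone.

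Counted by gene, a promoter peak was present at 1 member without Dox (ERBB2), 0 at 24 h, 1 at 48 h (ERBB3) and 9 at 72 h. The background over all protein-coding genes was 9.4% without Dox, then 2.55% (24 h), 9.09% (48 h) and 58.4% (72 h). A peak within 100 kb was present at 5, 6, 9 and 10 of the 10 members, with a background of 34.3% without Dox, then 21.6% (24 h), 56.4% (48 h) and 90.1% (72 h). The windows of EPGN, EREG and AREG overlap and share peaks, so these 3 genes are not separate counts. At 72 h most genes had a peak in reach, and the members are better described by where the peaks lay and how strong they were.

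The strength of a peak is given as fold enrichment, the authors' ratio of ChIP signal to local background at the summit. Its median over the members' peaks was 7.96 without Dox, then 6.63 (24 h), 7.58 (48 h) and 7.23 (72 h), against 5.57, 7.48, 6.61 and 7.17 over all peaks. The strongest member peak reached 16.6, 30.9, 42.4 and 74.5. The last 3 of these values belong to a single region upstream of EGFR.

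**Figure D2:**
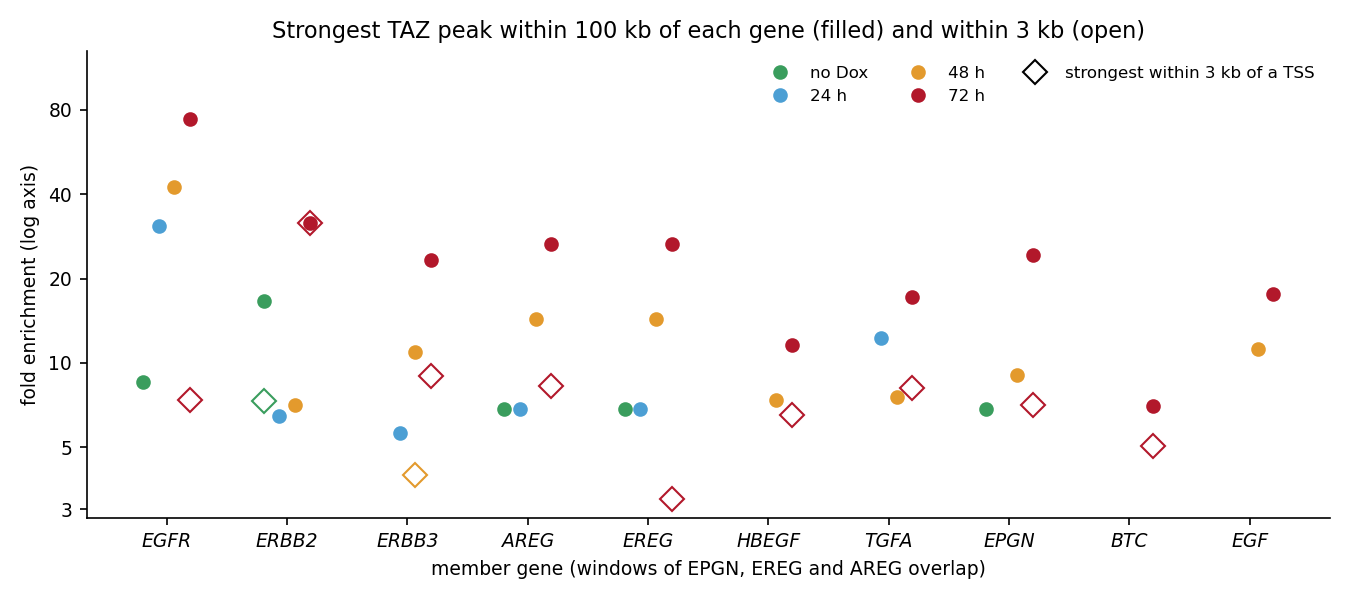
Fold enrichment (log axis) of the strongest TAZ peak within 100 kb of each member (filled circles) and within 3 kb of its TSS (open diamonds), coloured by list; a missing symbol means that no peak was called. The EGFR circles stand above those of the other members in the 3 lists with Dox, and apart from ERBB2 the promoter diamonds at 72 h lie below the circles. The ERBB2 diamond at 72 h (31.6) is 2459 bp from a TSS near the end of ERBB2 and 313 bp from the TSS of MIEN1. The peak at the canonical ERBB2 TSS had 11.5.

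EGFR encodes the receptor for EGF, amphiregulin and TGF-alpha, and it carried the strongest TAZ peak of the family in the 3 lists with Dox. The region lies 51.4 kb upstream of the EGFR TSS, at chr7:54966900-54968347 (hg38), outside annotated protein-coding genes. Its fold enrichment was 8.57 without Dox, then 30.9 (24 h), 42.4 (48 h) and 74.5 (72 h). The summit pileup, the number of overlapping ChIP fragments worked out from the fold enrichment and the p-value, was 36 (95% Poisson interval 25.2 to 49.8) without Dox. After 24 h of Dox it was 92 (74.2 to 113), after 48 h 269 (238 to 303) and after 72 h 351 (315 to 390). The pileup was higher in each later list, and the counting intervals did not overlap.

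The lists differ in depth, and their genome-wide background coverage was 1.49, 1.42, 2.84 and 2.01 fragments. Divided by that coverage, the summit stood 24.1 (16.9 to 33.4), 64.9 (52.3 to 79.6), 94.6 (83.6 to 107) and 175 (157 to 194) times above background in the 4 lists, in order of time. The order of the 4 times and the separation of the intervals were kept. The 4 summits lay within 52 bp of each other. The region ranked 489 of 2431 peaks without Dox, then 11 of 2469 (24 h), 13 of 11767 (48 h) and 32 of 38667 (72 h). Among the 20033 genes ordered by their strongest peak within 100 kb, EGFR took place 2263 without Dox, then 33 (24 h), 31 (48 h) and 93 (72 h).

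**Figure D3:**
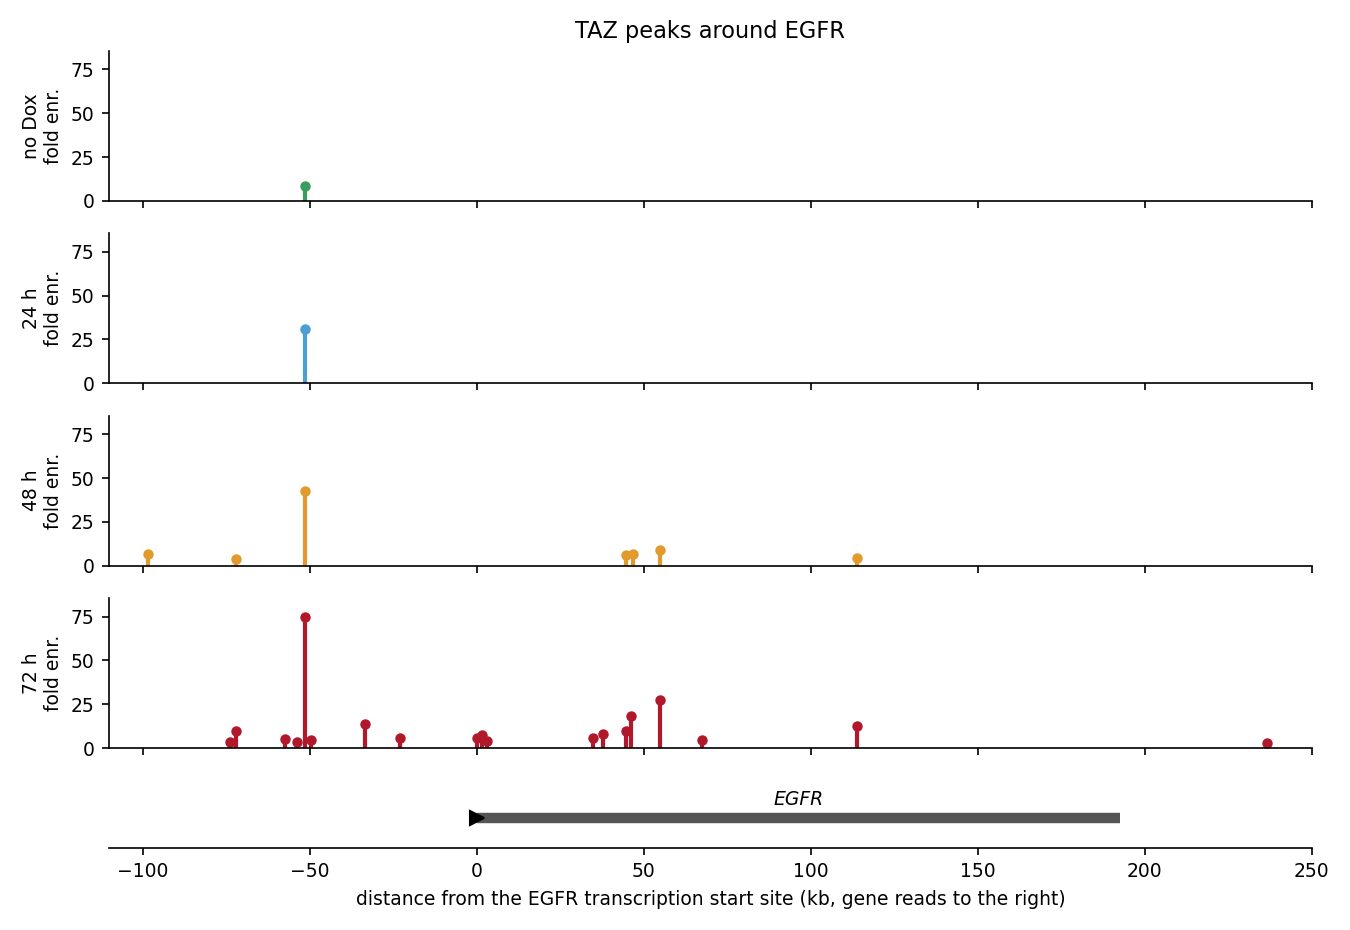
TAZ peaks assigned to EGFR by distance from the canonical TSS (kb, horizontal axis) and fold enrichment (vertical axis), 1 panel per list, with the gene drawn as a bar below. The peak 51.4 kb upstream is present in all 4 panels, the intron 1 group appears at 48 h, and the peaks at the TSS appear at 72 h.

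The rest of the EGFR locus filled in later. Without Dox and at 24 h the upstream region was the only EGFR peak, at 48 h there were 7 peaks and at 72 h 19. Of the 20 EGFR regions 13 were called at 72 h alone, 16 were distal, and 9 lay in intron 1. Over all regions 66.5% were called at 72 h alone, so late calls were not particular to EGFR. On the assembled chromosomes 22393 of all regions were distal and 17037 lay at promoters. The strongest intronic region, 55.0 kb downstream of the TSS at chr7:55071874-55074722, had a fold enrichment of 9.14 at 48 h and 27.2 at 72 h, with pileups of 45 and 95. Other intron 1 regions called at both 48 h and 72 h were at 44.8 kb (6.13 and 9.93), 46.2 kb (6.87 and 18.1) and 113.9 kb (4.44 and 12.8). The EGFR TSS itself had no peak before 72 h. At 72 h 3 weak promoter peaks were called, 23 bp from a TSS with a fold enrichment of 5.93, and in intron 1 at 1624 bp (7.38) and 2927 bp (4.13). The upstream region at 98.2 kb was called at 48 h (6.88) and not at 72 h.

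ERBB2 encodes the receptor HER2, which has no known ligand of its own and acts as the preferred partner of the other receptors. It was the 1 member with a peak within 3 kb of one of its own TSSs without Dox. That region, at chr17:39687657-39688405, lies 12.0 kb before the canonical TSS. Only the nearest gene was recorded for each summit, so a promoter shared with another gene would not be seen here. Its summit was 76 bp from one of the upstream TSSs of ERBB2 without Dox and 7 bp from one at 72 h. Its fold enrichment was 8.09 with a pileup of 43 (31.1 to 57.9) at 72 h, against 7.34 with a pileup of 22 (13.8 to 33.3) without Dox, and it was not called at 24 h or 48 h. Over genome-wide background the summit was 21.4 (15.5 to 28.9) at 72 h and 14.8 (9.25 to 22.3) without Dox, so the intervals overlapped. At the canonical ERBB2 TSS a peak was called at 72 h alone, with a fold enrichment of 11.5, a pileup of 89 and a TEAD motif in its window.

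The strongest peaks counted for ERBB2 lay closer to its neighbours. The peak of 16.6 without Dox was 28 bp from the TSS of STARD3, a cholesterol-binding protein of endosomes, and this region had 6.45 at 24 h, no call at 48 h and 9.67 at 72 h. Its pileups were 49, 19 and 47 fragments, and over genome-wide background it stood at 32.9 (24.3 to 43.4) without Dox, 13.4 (8.07 to 20.9) at 24 h and 23.4 (17.2 to 31.2) at 72 h. It was the only member region with a higher fold enrichment without Dox than at 72 h. At 72 h the highest value, 31.6 with a pileup of 137, was 2459 bp from a TSS annotated near the end of ERBB2 and 313 bp from the TSS of MIEN1. A further 3 peaks at 72 h lay at the promoter of GRB7, an adaptor of the receptor kinases and a neighbour of ERBB2, with 4.30, 5.34 and 3.74. An ERBB2 intron 1 peak 845 bp from an internal TSS had 4.23.

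ERBB3 encodes a receptor with a weak kinase that binds neuregulins and signals with its partners. It had 0 peaks in reach without Dox, then 1 (24 h), 7 (48 h) and 19 (72 h). The ERBB3 promoter, at chr12:56078943-56080807, was the only member promoter with a call at 48 h. Its fold enrichment was 3.98 at 48 h and 9.01 at 72 h, with pileups of 16 and 48. The summit lay 157 bp from a TSS at 48 h and 44 bp from one at 72 h, and these summits were 393 bp apart. The 48 h call, at a −log10 q of 4.42, was lost at a minimum of 5 and with lists scaled to the lowest background coverage. An AP-1 motif lay in the window of the 72 h summit. At 48 h the AP-1 motif was in 0 of the 4 promoter peaks counted for the members. At 72 h, 3 distal regions between RPS26 and ERBB3 were stronger than the promoter. At 25.0 kb upstream the values were 4.84 at 48 h and 22.4 at 72 h, at 20.0 kb 7.71 and 13.4, and at 8.4 kb 8.64 and 20.3. The first and the last of these held a TEAD motif and the middle one an AP-1 motif.

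Many peaks in reach of ERBB3 lay at neighbouring genes. The 24 h peak lay at the promoter of RPS26, a ribosomal protein gene, with 5.64 at 24 h and 12.9 at 72 h and no call at 48 h. The strongest region in reach, 117.0 kb downstream of the canonical TSS, had 10.9 at 48 h and 23.2 at 72 h, and its nearest protein-coding gene was SMARCC2, a chromatin remodelling subunit, 7615 bp away. At 72 h 12 of the 19 peaks were at promoters of other genes, among them PA2G4 (9.73), RPL41 (6.32) and ESYT1 (5.55).

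Among the ligands, amphiregulin (AREG), epiregulin (EREG) and epigen (EPGN) lie side by side on chromosome 4, and 16 regions were nearest to one of them. Amphiregulin and epigen bind EGFR, and epiregulin binds EGFR and ERBB4. The AREG region 12.1 kb upstream, chr4:74432448-74433947, was called at 24 h with a fold enrichment of 6.82, at 48 h with 14.3 and at 72 h with 26.6. Its pileups were 16 (9.15 to 26.0), 66 (51.0 to 84.0) and 79 (62.5 to 98.5) fragments. Over genome-wide background these were 11.3 (6.45 to 18.3), 23.2 (18.0 to 29.5) and 39.4 (31.2 to 49.1), so the 72 h value lay above both others, and the intervals at 24 h and 48 h overlapped slightly. Close by, a region 16.1 kb upstream of AREG had 10.1 at 48 h and 22.0 at 72 h and also held a TEAD motif.

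EREG had the only distal ligand region called without Dox. It lies in intron 1 of EREG at chr4:74374242-74376422, 9.6 kb downstream of the TSS, and holds the pair of AP-1 motifs shown above. Its fold enrichment was 6.83 without Dox, 9.07 at 48 h and 24.2 at 72 h, with no call at 24 h. The pileups were 22 (13.8 to 33.3), 47 (34.5 to 62.5) and 96 (77.8 to 117), or 14.8 (9.25 to 22.3), 16.5 (12.1 to 22.0) and 47.9 (38.8 to 58.5) over genome-wide background. The values without Dox and at 48 h therefore overlapped, and that at 72 h lay above both.

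**Figure D4:**
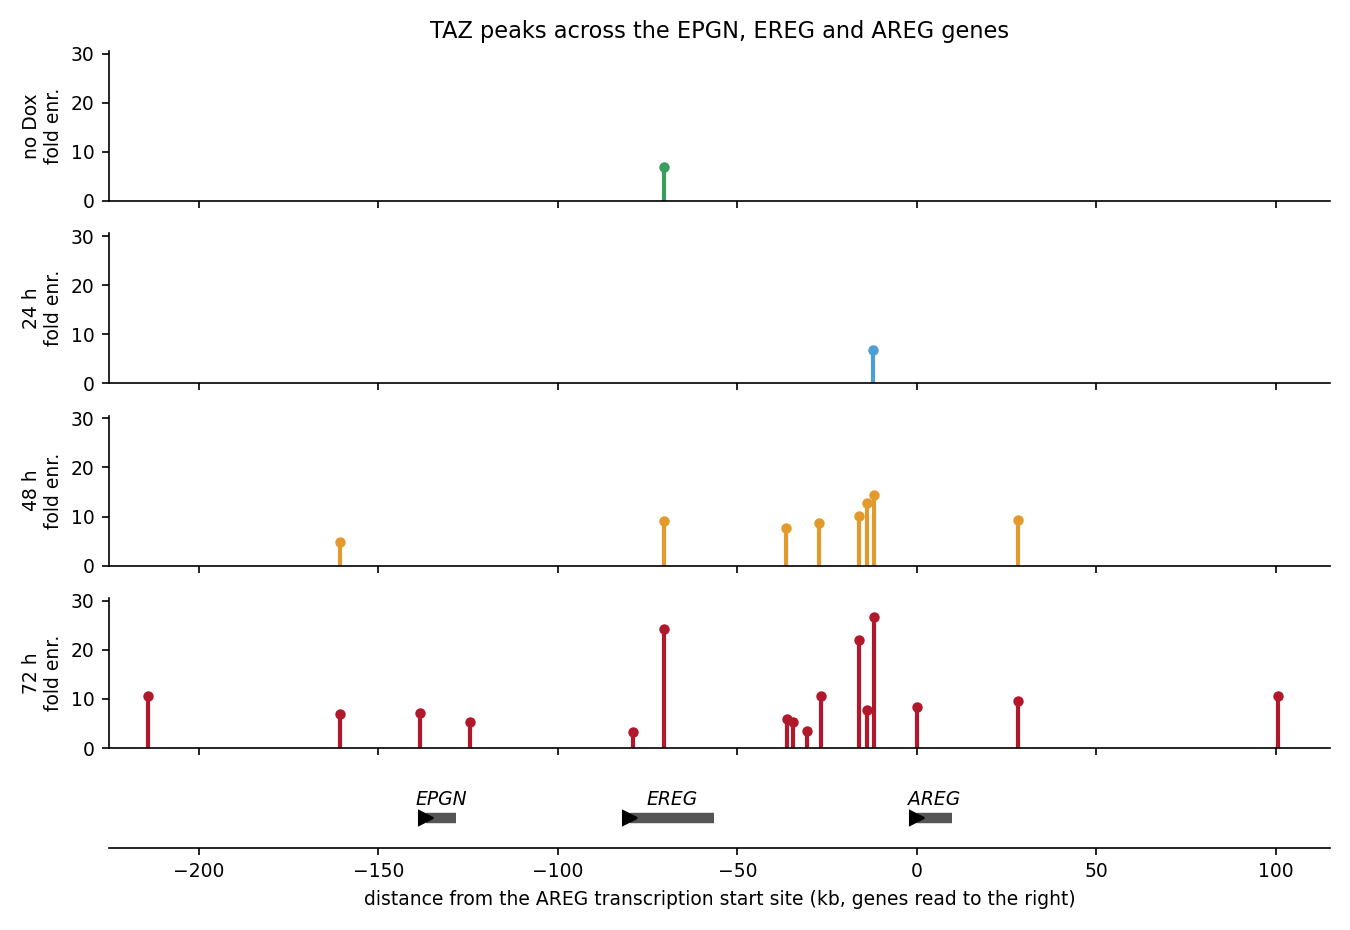
TAZ peaks assigned to EPGN, EREG or AREG by distance from the AREG TSS (kb, horizontal axis) and fold enrichment (vertical axis), 1 panel per list, with the 3 genes drawn below. The stretch between EREG and AREG holds 1 peak at 24 h and several at 48 h and 72 h, and peaks within 3 kb of a TSS of these genes appear only at 72 h.

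The promoters of these 3 ligand genes were called only at 72 h, and each peak was weaker than the strongest distal region of its gene. The AREG promoter peak, 41 bp from the TSS, had a fold enrichment of 8.26. The EREG promoter peak, in intron 1 at 772 bp, had 3.27 from 10 fragments at a −log10 q of 2.46, and the EPGN promoter peak, 1611 bp from the TSS, had 7.07. The EREG promoter call was lost at a −log10 q minimum of 5 and with scaled lists, which left 8 members with a promoter peak at 72 h. Of the 16 regions in this cluster 8 were called before 72 h, and none of those 8 was a member promoter. Over all regions 39.7% of distal and 25.4% of promoter regions were called before 72 h. The cluster has only 3 member promoters, too few for a contrast with its 12 distal regions. The region 13.8 kb upstream of AREG had a lower fold enrichment later, with 12.8 at 48 h and 7.76 at 72 h and pileups of 51 and 32. Over genome-wide background it stood at 17.9 (13.4 to 23.6) at 48 h and 16.0 (10.9 to 22.5) at 72 h, with overlapping intervals.

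BTC encodes betacellulin, a ligand of EGFR and of ERBB4, and it had the fewest peaks. There were 2, both at 72 h alone, with a fold enrichment of 5.06 at the promoter, 85 bp from the TSS, and 6.99 at 111.6 kb downstream. The window of the downstream region held both motifs. By its strongest peak BTC lay above 19.5% of all genes at 72 h, the lowest place in the family.

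TGFA, which encodes the EGFR ligand TGF-alpha, had 2 of the 6 peaks at 24 h. The region in its first intron, 29.3 kb downstream of the TSS at chr2:70523637-70525601, had a fold enrichment of 12.3 at 24 h, 7.53 at 48 h and 17.2 at 72 h. Its summits lay within 14 bp of each other, and its pileups were 37 (26.1 to 51.0), 59 (44.9 to 76.1) and 108 (88.6 to 130). Over genome-wide background the values were 26.1 (18.4 to 36.0), 20.8 (15.8 to 26.8) and 53.9 (44.2 to 65.0), so 24 h and 48 h overlapped while 72 h was higher. The second 24 h region, 181.9 kb downstream of the canonical TSS and nearer to FAM136A, was weak, with 4.35 at 24 h and 4.88 at 72 h. The TGFA promoter peak, 84 bp from a TSS, was called at 72 h alone with 8.12.

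HBEGF encodes heparin-binding EGF-like growth factor, a ligand of EGFR and of ERBB4. It had no peak in reach without Dox or at 24 h, 2 at 48 h and 9 at 72 h. Both 48 h regions lay in introns of the neighbour PFDN1, with fold enrichments of 7.39 at 48 h and 6.45 at 72 h, and of 4.63 at 48 h and 4.08 at 72 h. Over genome-wide background both were higher at 72 h, with 28.4 (21.5 to 36.8) at 72 h against 17.6 (13.1 to 23.2) at 48 h, and 9.97 (6.09 to 15.4) against 8.44 (5.41 to 12.6), and the intervals overlapped. The strongest region, 23.6 kb downstream of the TSS, was called at 72 h alone with 11.6 and 79 fragments, and the promoter peak, 1414 bp from the TSS in intron 2, had 6.51. At 72 h 42.9% of all genes had a weaker strongest peak than HBEGF, or none.

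EGF encodes the founding ligand of the family and was the only member with no promoter peak in any list. It had 1 peak in reach at 48 h and 4 at 72 h. The strongest, beyond the end of the gene at chr4:110019755-110020825, had a fold enrichment of 11.2 at 48 h and 17.6 at 72 h, with pileups of 42 and 59. A peak in intron 1 had 8.51 at 72 h.

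The regions were next followed by overlap across the lists. Of the 92 regions 60 were called at 72 h alone, 65.2%, against 66.5% of all regions, and 22 were called at 48 h and 72 h, 23.9% against 21.2%. The EGFR region was the only one of the 92 called at all 4 times, 1.09% against 1.1% of all regions. The median fold enrichment at 72 h was 11.7 over the 22 regions already called at 48 h and 5.88 over those called at 72 h alone, and over all regions it was 11.6 and 6.03. The members' regions were thus close to the rest of the genome in these shares and medians.

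Without Dox the members had 4 peaks, of which 2 overlapped a peak at 24 h (all peaks 20.1%), 2 at 48 h (32.0%) and 4 at 72 h (89.3%). The 6 peaks of 24 h were found again in 3 cases at 48 h, with an exact interval of 11.8 to 88.2%, against 92.3% of all peaks, and in 6 cases at 72 h (96.7%). From 48 h to 72 h, 26 of 28 were found again, 92.9% (76.5 to 99.1%) against 95.3%. The 3 peaks of 24 h with no call at 48 h were those at the promoters of STARD3 and RPS26 and the weak distal one near FAM136A. Among all 24 h peaks on the assembled chromosomes, 55.7% of the 183 with no call at 48 h were promoter peaks, against 26.8% of the 2264 called again. The small number of member peaks at 24 h limits what can be read from the share.

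**Figure D5:**
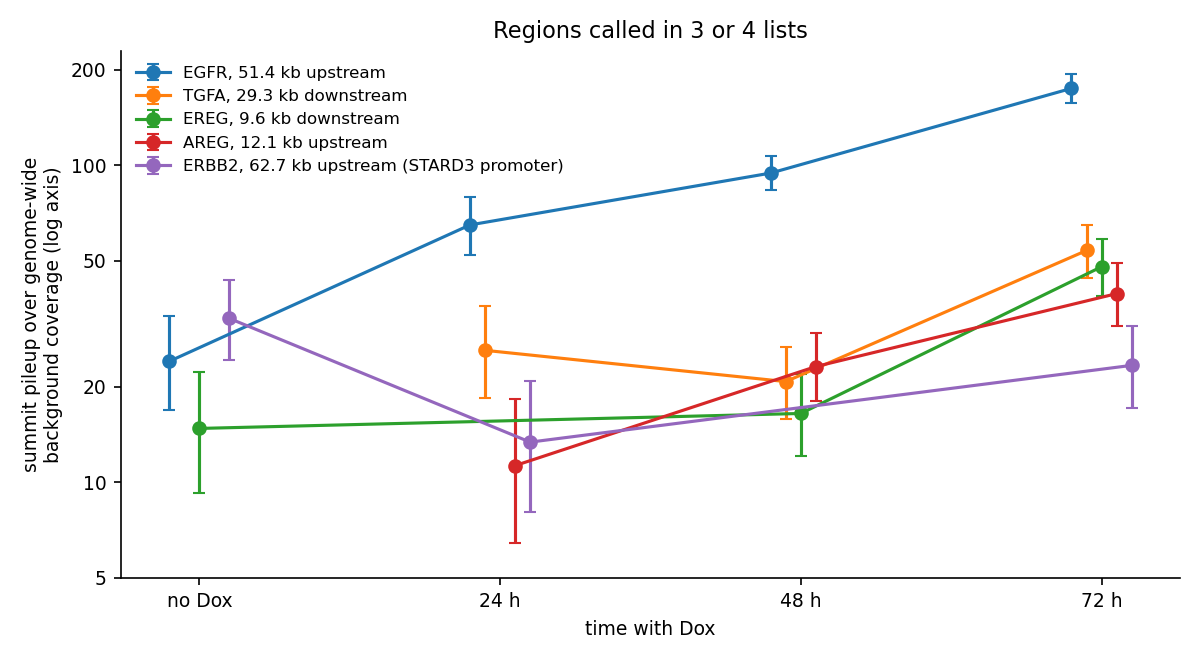
Summit pileup over genome-wide background coverage (log axis, bars are 95% Poisson intervals) for the 5 regions called in 3 or 4 lists, by time with Dox; lines pass over a time at which no peak was called. The EGFR region reaches 175 at 72 h, while the other 4 regions lie between 23.4 and 53.9.

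Fold enrichment at regions called in both lists of a pair was higher at 72 h than at 48 h in 21 of 26 member regions, with a median ratio of 1.99 and a range of 0.607 to 4.62, against a median of 1.88 and 90.9% higher over all regions. Against 24 h it was higher at 72 h in 6 of 6 regions, with a median ratio of 1.89 (all regions 2.82). Against no Dox it was higher at 72 h in 3 of 4 regions, with a median ratio of 2.33 (all regions 1.84). With the summit pileup set over genome-wide background instead, 24 of the 26 regions were higher at 72 h than at 48 h. The 2 that were not are the AREG region at 13.8 kb and a region in IKZF3, 63.6 kb downstream of ERBB2.

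Promoter and distal regions were set side by side for timing, sequence and strength. Of the 56 distal regions 25 were called before 72 h (44.6%), against 2 of the 14 member promoters and 5 of the 22 promoters of other genes (19.4% of both together). Over all regions these shares were 39.7% for distal and 25.4% for promoter regions, so the contrast was present genome-wide. The TEAD motif was found in 20 of the distal windows (35.7%), in 2 of the member promoters (14.3%) and in 3 of the other promoters (13.6%), and the AP-1 motif in 9, 1 and 1. Median GC content was 46.0%, 58.0% and 61.0%. The median fold enrichment at 72 h was 8.38, 7.22 and 5.56. Over all regions the TEAD motif was found in 34.9% of distal and 18.2% of promoter windows and the AP-1 motif in 20.7% and 9.87%, with a median GC content of 45.3% and 61.2% and a median fold enrichment of 7.64 and 6.65.

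Counted by list, the TEAD motif was found in 1 of 4, 3 of 6, 11 of 28 and 23 of 90 member peaks in the 4 lists, in order of time. These are 25.0%, 50%, 39.3% and 25.6%, against 16.4%, 52.1%, 41.8% and 27.7% of all peaks. The AP-1 motif was found in 25.0%, 33.3%, 17.9% and 12.2% of member peaks, against 7.24%, 17.3%, 19.9% and 16.0% of all peaks. At 48 h and 72 h the exact intervals of the members, 21.5 to 59.4% and 16.9 to 35.8% for TEAD, included the values of all peaks. The RefSeq promoter windows of the members covered 300 bp around the TSS and numbered 11. None was for ERBB3, and the only ERBB2 window lay at the upstream TSS, not at the canonical one. No TEAD motif was found in them. An AP-1 motif was found in the EGF window and in 1 of the EGFR windows, at an internal TSS (chr7:55109589-55109888). The window at the canonical EGFR TSS held neither motif. Over all 35116 such windows 6.64% held the TEAD and 4.95% the AP-1 motif.

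Other genes of the pathway were counted from a list of 50, in 4 roles. A promoter peak was present at 7 of them without Dox, then 3 (24 h), 10 (48 h) and 42 (72 h), which is 14%, 6%, 20% and 84% of the list, to be read against the 9.4%, 2.55%, 9.09% and 58.4% of all genes. At 72 h these were 2 of 5 relatives (ERBB4 and the neuregulins), 7 of 9 genes of ligand shedding, 22 of 25 signal relays and 11 of 11 inhibitors. Among the relays SHC1, an adaptor that binds the activated receptors, had a promoter peak in every list, with fold enrichments of 8.58, 7.67, 13.3 and 29.7. STAT3, a transcription factor activated by the receptors, had a promoter peak from 24 h on, with 6.37, 11.6 and 23.

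The other relay promoters called at 48 h were PTPN11 (4.77 at 48 h and 18.7 at 72 h), PIK3R1 (3.87 and 11.6), PLCG1 (8.47 and 17.4) and STAT5B (5.03 and 12.0, with 5.04 without Dox). In the shedding group, the protease gene ADAM9 had a promoter peak of 5.28 at 24 h, 6.65 at 48 h and 7.96 at 72 h, and TIMP3, an inhibitor of such proteases, 3.77 at 48 h and 13.2 at 72 h. Among the inhibitors, the SOCS5 promoter gave 5.10 (no Dox), 3.63 (48 h) and 14.5 (72 h), and the phosphatase gene PTPN1 6.59 at 48 h and 14.0 at 72 h. The strongest peaks within 100 kb at 72 h were those of PTPN1 (58.6) and CBLB (29.3) among the inhibitors, TIMP3 (58.4) and ADAM10 (43.5) for shedding, GRB2 (35.6) and AKT1 (33.8) among the relays, and NRG1 (17.7) and ERBB4 (15.6) among the relatives. All of these were below the 74.5 of the EGFR region.

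Assignment by distance does not show which gene a region acts on, and 36 of the 92 regions were nearer to a TSS of another protein-coding gene than to that of a member. EGFR has TSSs spread over 181556 bp, so its window is wider than that of AREG, whose TSSs span 3503 bp. Just inside the 100 kb limit, ERBB3 peaks at 99213 bp (20.2 at 72 h) and 99249 bp (8.50 at 48 h) were counted, and just outside it peaks at 104506 bp (6.14 at 48 h) and 104556 bp (17.9 at 72 h) were not.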

How the data were processed

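TAZ ChIP-seq of 4 conditions, each with 1 TAZ and 1 IgG library (8 libraries), gave 4 peak lists. Libraries were grouped by their titles. Both libraries of a condition point to 1 list, and whether IgG served as control of the peak caller is not given in the sources used here.

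According to the methods of the study, the authors trimmed reads, mapped them to hg38 with BWA and used MACS2 for peaks (false discovery rate 0.01), with versions not given in the sources used here. The deposited lists hold the fold enrichment of each peak as a ratio with a pseudocount of 1 in both terms. The authors also deposited −log10 of the p-value and of the q-value, and the offset of each summit. Total reads are not in the lists. Summit pileup and background were therefore solved together from that ratio and its Poisson p-value, which returned 100% of the deposited −log10 p-values within 0.003. The median pileup was 20 without Dox, then 24 (24 h), 36 (48 h) and 32 (72 h). The method was tested on simulated data.

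Summits were assigned to GENCODE version 44 TSSs on hg38 within 100 kb, and a promoter reached 3 kb. Coordinates are 1-based. Introns and exons refer to the canonical transcript. Promoter windows came from RefSeq (hg38). The 10 members, the pathway list and the tests were chosen with earlier results of these data known. Regions described singly were, by rule, those with the strongest peak of each member, those called without Dox or at 24 h, and member promoters, and further regions of the same loci are named to describe a locus. Pathway genes were named for a promoter peak at 24 h or 48 h, or as the 2 strongest of their role at 72 h. With 1 list per condition no test between times was possible. Alternatives were windows of 50 kb, promoters of 1 kb, canonical TSSs, −log10 q of at least 5, lists scaled to the lowest background coverage, other overlaps and other motif windows. Python 3.11.15, numpy 2.4.6, pandas 2.3.3, scipy 1.17.1 and pysam 0.24.0 were used. RNA and accessibility data were not analysed here.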

Additional observations from a re-analysis of the deposited data

How the results depend on the processing

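Of 82 values recomputed under the alternatives, 68 stayed within limits (1.5 times for a count, the exact interval for a share) and 14 moved. A direction could turn only for the 6 median ratios of fold enrichment, since a count or a share has none, and 0 turned. The intervals of small lists are wide, so some shares within them still differed by more than 1.5 times. With a 50 kb window the members had 2 peaks without Dox and 3 at 24 h, at 2 and 3 members. With canonical TSSs alone the number of members with a promoter peak without Dox was 0, since the ERBB2 peak lies at an upstream TSS. At 48 h that number was 0 with a −log10 q of at least 5 and also 0 with lists scaled to the lowest background coverage, because the ERBB3 promoter peak is weak. With such scaling the members had 4, 6, 27 and 82 peaks. Requiring an overlap of 50% of both intervals left 33.3% of the 24 h peaks and 64.3% of the 48 h peaks with a match at 72 h, and 16.7% of the 24 h peaks with one at 48 h (50% at 1 bp). The cause was not tested, and the median width of member peaks was 866 bp at 72 h, against 367 bp at 24 h and 618 bp at 48 h. In windows of 50 bp to either side the AP-1 motif was in 0% of member peaks without Dox (all peaks 4.73%), then 0% at 24 h (10.0%), 10.7% at 48 h (11.9%) and 4.44% at 72 h (9.46%). Over whole intervals at 72 h, TEAD was in 42.2% (all peaks 43.0%) and AP-1 in 27.8% (31.1%). Without Dox these were 75.0% (28.3%) and 50% (15.6%) of 4 peaks, and at 48 h AP-1 was in 35.7% (33.3%). No paired analysis was possible because each condition has 1 list. Depth limits the lists without Dox and at 24 h, where a region with no call may have been below detection.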
